A study of Mus musculus with 23 samples.

Results

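Macrophages from 2 mouse tumour models of head and neck cancer were compared: SCCVII tumours grown in C3H/HeJ mice and HPV-positive MEER tumours grown in C57/Bl6 mice. The comparison rests on 6 of the 23 libraries of the study, 3 from each model, taken by their labels alone. SCCVII is a squamous carcinoma line without papillomavirus, and HPV-positive MEER is a line of mouse oropharyngeal epithelial cells that carries papillomavirus oncogenes. Both were implanted under the skin, and cells with CD45, CD11b and high F4/80 but without Gr1 were sorted from the dissociated tumours. Each library came from cells pooled from 3 to 4 mice, so the replicate is a pool, and no further treatment is given in the labels. Strain, line and papillomavirus status change together between the 2 groups and cannot be told apart. The remaining libraries were macrophages of HPV-negative MEER tumours, which shared the statistical fit, the cultured tumour lines, and colonies grown from the sorted macrophages.

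Tumour macrophages arise largely from blood monocytes that enter the tumour and mature there. They can present antigen on MHC class II molecules, release cytokines and chemokines that draw in other leukocytes, remodel matrix and vessels, and take up dying cells. Which of these programmes a macrophage runs depends on signals such as interferons, bacterial products, interleukin-4, colony-stimulating factors, lactate and low oxygen.

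The files give expected counts, the estimated number of reads per gene. Levels are given as CPM, counts scaled to library size by TMM, and changes as log2 fold changes of SCCVII over HPV-positive macrophages with their standard error, so a negative value is a lower level in SCCVII. Adjusted p-values are from edgeR's quasi-likelihood test with Benjamini-Hochberg adjustment over all genes tested, and a gene is called at an adjusted p under 0.05. Depth was 31061554 to 32674678 counts in SCCVII and 26848759 to 31680904 counts in HPV-positive libraries. The first principal component of the 9 macrophage libraries held 67.9% of the variance, with SCCVII at 98.5 to 103.7, HPV-negative MEER at -17.4 to -14.3 and HPV-positive MEER at -87.1 to -82.3.

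The sorted cells carried the transcripts of the sort. Itgam, which encodes CD11b, stood at 2141, 2165 and 1963 CPM in SCCVII and at 1241, 1280 and 1144 CPM in HPV-positive libraries (log2 change 0.73 ± 0.08, adjusted p = 2.4e-05). Adgre1, the gene of F4/80, stood at 988, 1043 and 940 against 460, 564 and 521 CPM (0.90 ± 0.14, 0.00035). Both sort genes were higher in every SCCVII library, while Ptprc, the gene of CD45, was lower in each (-0.55 ± 0.12, 0.0026). Csf1r, the colony-stimulating factor receptor on which macrophages depend, was at 3009 to 3143 against 2859 to 2973 CPM and did not pass the test (0.03 ± 0.11, 0.80). Of 17 tested macrophage identity genes 3 were higher, 6 lower and 8 not called, with a median log2 change of -0.17. C1qa and Mpeg1, markers of mature macrophages, were not called (-0.13 ± 0.16, 0.52 and -0.12 ± 0.13, 0.44).

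The strain labels were checked on strain-linked genes. H2-Ea-ps, the MHC class II alpha chain gene that C57BL/6 mice cannot transcribe because of a promoter deletion, was at 145, 202 and 215 CPM in SCCVII and at 0.138, 0.13 and 0.157 CPM in HPV-positive macrophages. Nnt, listed as strain-linked as well, was higher in SCCVII by much less (0.77 ± 0.09, adjusted p = 6.4e-05). HPV-positive replicate 2 stood apart within its group. It held the lowest levels of dendritic, T and natural killer cell genes and the highest of Fn1, Spp1, Csf1, Apoe, Folr2 and Cd163. Changes without it are given for Folr2, Cd163 and Vsig4.

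Most genes differed. Of 14085 genes tested, 8901 were called (63.2%), 4542 of them higher (32.2%) and 4359 lower (30.9%) in SCCVII macrophages. The libraries of the 2 groups did not overlap for 10420 genes (74%), with SCCVII above in 40.2% and below in 33.8%. The median change of all genes was 0.01 and the median size of change 0.51 on the log2 scale. When tested against a 2-fold change, 2553 genes passed (18.1%), 1041 higher (7.39%) and 1512 lower (10.7%). The large changes leaned to lower levels in SCCVII: 833 called genes had a log2 change below -3 and 342 above 3, and 343 lay below -5 against 130 above 5. With so many genes called, each gene list below is read against 32.2% higher and 30.9% lower among all genes. A fit of all 23 libraries, whose colonies and lines share the estimate of spread, ended the call of 66 of the 324 genes named by rule. Among the genes given here these are Itgam, Adgre1, Ptprc, Lyz2, Ccr2, Siglec1, Stab1, Cd36, Tnf, Tlr7, Ccl2, Ccl7, Ccl9, Ticam2, Il18, Alox5ap, Fcer1g, Isg15, Csf2ra, Clec10a, Pf4, Plac8, Vsig4, Gas6, Nqo1, Tnfrsf11a, Tnip1, Ccl8, Ccr3, Cd79b, Vwf and Kdr.

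**Figure D1:**
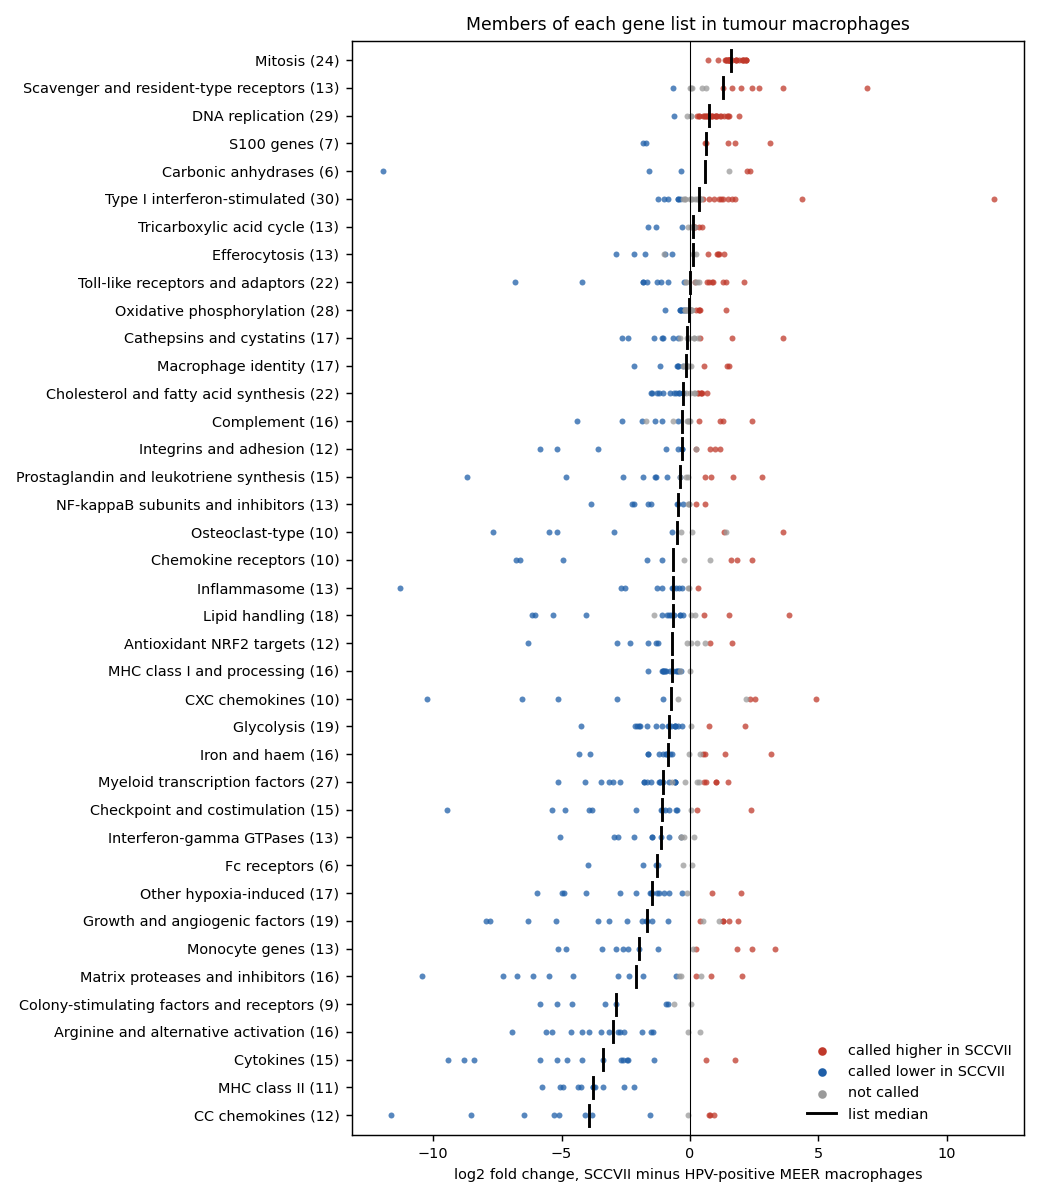
Log2 fold change of SCCVII over HPV-positive MEER macrophages (x axis) for every tested member of 39 gene lists (rows, tested members in brackets), with a black bar at each list's median. Red points were called higher in SCCVII, blue points called lower and grey points not called: mitosis genes sit to the right with a median of 1.6, and CC chemokines and MHC class II genes at the bottom have medians of -3.94 and -3.79.

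The plot of gene lists orders them by median. Mitosis, scavenger receptor and DNA replication genes had the highest medians. CC chemokines, MHC class II genes, cytokines and genes of alternative activation had the lowest. A few lists held large changes both ways, among them the CXC chemokines and chemokine receptors.

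Antigen presentation on MHC class II was the list most uniformly lower in SCCVII macrophages. These molecules show peptides to CD4 T cells, and their genes share an upstream promoter module with X and Y boxes, the Y box being an inverted CCAAT, read by a factor complex that recruits the coactivator Ciita. The promoters of 4 members are printed to show that shared element, as the 120 bases before each start site in the RefSeq GRCm38.p6 reference, with CCAAT on either strand in capitals. The coordinates are H2-Aa chr17:34287824-34287943 on the minus strand and, on the plus strand, H2-Eb1 chr17:34305747-34305866, H2-DMb1 chr17:34153071-34153190 and H2-Oa chr17:34092259-34092378.
H2-Aa: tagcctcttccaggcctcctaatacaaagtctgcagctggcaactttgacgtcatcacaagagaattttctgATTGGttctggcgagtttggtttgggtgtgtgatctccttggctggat
H2-Eb1: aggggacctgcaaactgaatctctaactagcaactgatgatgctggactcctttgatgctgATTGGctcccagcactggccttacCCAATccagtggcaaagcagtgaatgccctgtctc
H2-DMb1: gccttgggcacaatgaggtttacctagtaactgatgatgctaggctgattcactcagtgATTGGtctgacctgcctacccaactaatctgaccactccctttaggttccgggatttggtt
H2-Oa: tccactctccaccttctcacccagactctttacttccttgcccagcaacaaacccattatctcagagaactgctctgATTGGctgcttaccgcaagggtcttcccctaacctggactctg
CCAAT lay in the 250 bases before the start site in all 8 of the list's members that had a RefSeq promoter entry, and in 37.5% of 27025 genes with an entry. The bases are those of the C57BL/6J reference, so they are not the sequence of the C3H/HeJ cells, and a match of 5 letters is a description and not a bound site.

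All 11 tested class II genes were lower in SCCVII, each by more than 2-fold, with a median of -3.79. H2-Ea-ps, which differs between the strains as given above, was not in this list and was higher (10.28 ± 0.26, 4.4e-09). H2-Aa stood at 297, 416 and 443 CPM in SCCVII and at 8600, 6614 and 7920 CPM in HPV-positive macrophages (-4.37 ± 0.39, 9.6e-06). H2-Ab1, its beta chain, stood at 124, 160 and 171 against 8850, 6689 and 8257 CPM (-5.75 ± 0.41, 2.1e-06). No SCCVII library came near the lowest HPV-positive one for either chain. Members that do not form the peptide groove moved alike. The invariant chain Cd74, which guides class II molecules through the cell, was lower (-3.68 ± 0.34, 1.1e-05), as was Ciita, at 27.3, 28.7 and 33.8 against 457, 330 and 419 CPM (-3.79 ± 0.35, 1.2e-05). The peptide exchange factors H2-DMa and H2-DMb1 were lower by -3.37 ± 0.24 and -4.25 ± 0.28. H2-Eb2, at 0.0661 CPM or less in 2 SCCVII libraries, had a change of -5.07 that became -6.39 without SCCVII replicate 1. On a per-length scale, which allows genes to be compared with each other, Cd74 was among the most abundant transcripts of HPV-positive macrophages at 24421 ± 1568 TPM (SD, n = 3), against 2364 ± 315 TPM in SCCVII. H2-Aa was at 9473 ± 1219 TPM against 612 ± 110 TPM.

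MHC class I genes, which show peptides to CD8 T cells, were lower by less: 14 of 16 were lower, none higher and 2 not called, with a median of -0.71. H2-D1 stood at 785, 865 and 870 against 2811, 2375 and 2322 CPM (-1.62 ± 0.12, 2.8e-06), and the peptide transporter gene Tap2 at 129, 133 and 143 against 321, 237 and 262 CPM (-1.06 ± 0.15, 0.00020). B2m, the shared light chain, changed least among the chain genes (-0.54 ± 0.14, 0.0071). Both classes are polymorphic, and reads of both strains were counted against 1 reference. What this contributes was not tested.

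Interferon-inducible genes were counted in 2 lists, and the difference between the lists was not tested. Of 13 GTPase genes typical of interferon-gamma, 9 were lower, none higher and 4 not called, with a median of -1.13. Gbp8 stood at 3.05, 3.7 and 6.01 CPM in SCCVII and 138, 142 and 129 CPM in HPV-positive macrophages (-5.05 ± 0.31, 8.2e-07), and Gbp4 at 23.2, 24.6 and 32.2 against 196, 177 and 164 CPM (-2.79 ± 0.20, 1.9e-06). The interferon-gamma transcript Ifng itself was at 0.0685, 0 and 0.171 against 9.35, 4.51 and 10.5 CPM (-6.65 ± 0.69, 2.5e-05, and -7.77 without SCCVII replicate 3). Ifng is made mainly by T and natural killer cells, whose marker levels are given below. Cxcl9, a chemokine induced by interferon-gamma, was lower as well (-2.84 ± 0.31, 3.6e-05).

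Among 30 genes of the type I interferon response, 11 were higher, 6 lower and 13 not called, with a median of 0.35, so that the number higher was near the share of all genes. Ifi44 stood at 160, 161 and 165 CPM against 8.11, 6.9 and 7.88 CPM (4.36 ± 0.12, 7.3e-09). Ifi44l, its neighbour in the family, was at 16.3, 15.6 and 17.3 CPM in SCCVII and had no counts in the HPV-positive libraries, which makes it at least 382-fold higher against a floor of 3 counts over that group. Cmpk2 (1.75 ± 0.24) and Ifit1 (1.49 ± 0.22) were higher too. Isg15, a ubiquitin-like modifier, went the other way at 38.6, 36.8 and 38.6 against 107, 73.5 and 78 CPM (-1.23 ± 0.20, 0.00054), while Mx1 and Irf7 were not called (-0.20 ± 0.19, 0.38 and 0.41 ± 0.25, 0.17). An interferon response element, spelled GAAA, 2 bases of any kind and GAAA, was found on either strand in the promoters of 9 of 20 type I genes with an entry and 9 of 10 GTPase genes, against 3.46% of all genes. GTPase members were called lower and none higher, whereas the type I list had calls both ways.

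Inflammatory cytokines were lower in SCCVII macrophages. Of 15 tested cytokine genes 13 were lower and 2 higher, with a median of -3.39. Il1b, the main secreted interleukin-1, stood at 9.28, 6.41 and 11.3 CPM against 3342, 2599 and 3131 CPM (-8.43 ± 0.53, 9.4e-07). Il1a stood at 0.411, 0.463 and 0.717 against 353, 359 and 350 CPM (-9.42 ± 0.43, 1.3e-07). Neither gene came within an order of magnitude between groups. Osm, a cytokine of the interleukin-6 family, was at 21, 19.1 and 21.5 against 1369, 937 and 1126 CPM (-5.84 ± 0.39, 1.3e-06), and Tnf was at 24.7, 18.4 and 18.5 against 149, 110 and 104 CPM (-2.60 ± 0.20, 3.2e-06). Il6 had 3 counts in all over the SCCVII libraries and stood at 17.2, 16.8 and 16.1 CPM in HPV-positive macrophages. Genes with opposing effects were lower too: the interleukin-1 receptor antagonist Il1rn (-2.70 ± 0.15), the decoy receptor Il1r2 (0.479 to 0.727 against 1148 to 1581 CPM, -11.29 ± 0.59), Il10 (-4.21 ± 0.36) and Tgfb1 (-1.41 ± 0.11). Il15 and Il18, which sustain natural killer and T cells, were the 2 that were higher, Il15 at 12.7, 13.3 and 14.1 against 4.42, 3.38 and 3.88 CPM (1.74 ± 0.12, 1.4e-06) and Il18 by 0.61 ± 0.12.

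**Figure D2:**
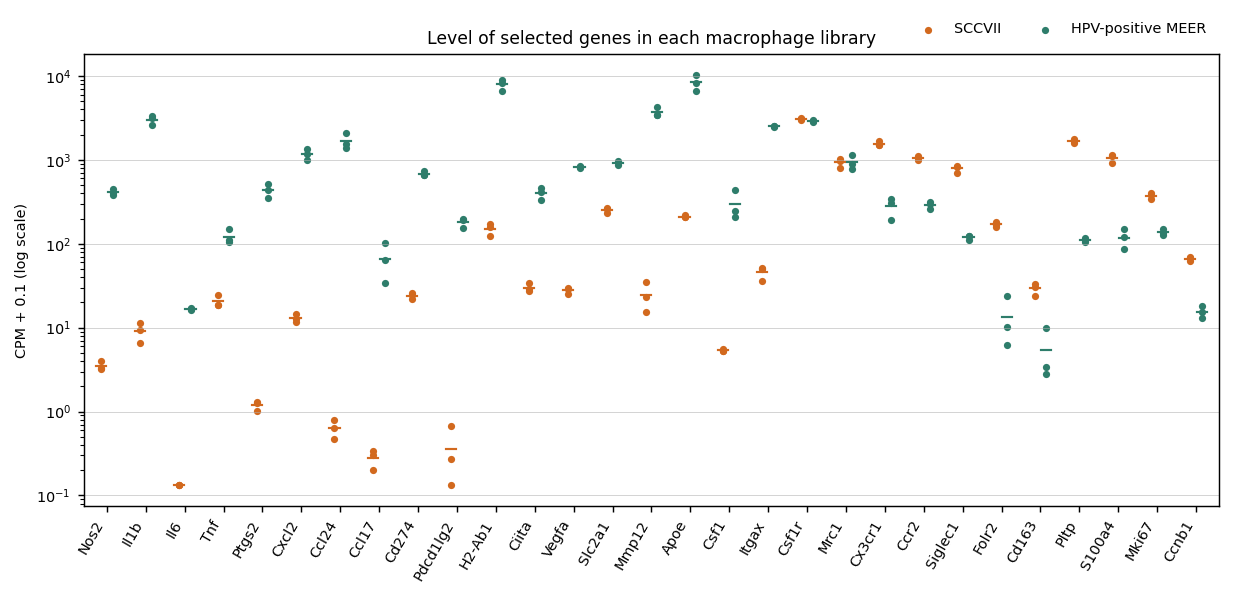
Level of 29 genes in each macrophage library, as CPM plus 0.1 on a log axis, with SCCVII in orange and HPV-positive MEER in green; each point is 1 library and each short line a group mean of 3. From Nos2 to Itgax the orange points lie below the green, Csf1r and Mrc1 overlap or nearly do, and from Cx3cr1 to Ccnb1 the orange points lie above.

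The plot of levels shows how narrow the replicates were beside the change. Groups were apart for each gene drawn except Mrc1, and the spread was widest among HPV-positive libraries for Ccl17, Folr2 and Cd163. The genes drawn were picked after their values were seen, 1 or more from most lists described here.

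Chemokines that draw neutrophils were lower. Cxcl2 stood at 12.6, 11.6 and 14.5 CPM in SCCVII and at 1349, 1004 and 1160 CPM in HPV-positive macrophages (-6.55 ± 0.31, 1.6e-07), and Cxcl1 at 0.856, 0.76 and 1.06 against 32.3, 30.2 and 27.7 CPM (-5.12 ± 0.23, 1.1e-07). Cxcl3 was at 0.103, 0 and 0.205 against 127, 136 and 113 CPM (-10.25 ± 0.37, 3.4e-08, and -11.19 without SCCVII replicate 3). No SCCVII library exceeded the lowest HPV-positive level of these genes. The 3 lie on chromosome 5, with Cxcl3 apart from Cxcl1 and Cxcl2. Their promoters and that of Il6, also on chromosome 5, are printed because these 4 genes share a kappaB-type element, the letters bound by NF-kappaB, and were lower together. Capitals mark GGG, 3 bases of any kind and TTCC on either strand, where GGGAATTTCCC holds 2 overlapping matches. All are on the plus strand: Cxcl1 chr5:90891125-90891244, Cxcl2 chr5:90903779-90903898, Cxcl3 chr5:90785981-90786100 and Il6 chr5:30012994-30013113.
Cxcl1: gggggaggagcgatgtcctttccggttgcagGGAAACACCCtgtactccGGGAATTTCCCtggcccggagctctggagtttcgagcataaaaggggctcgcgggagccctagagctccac
Cxcl2: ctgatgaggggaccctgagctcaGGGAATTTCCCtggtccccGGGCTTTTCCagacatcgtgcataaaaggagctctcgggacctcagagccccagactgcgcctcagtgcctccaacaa
Cxcl3: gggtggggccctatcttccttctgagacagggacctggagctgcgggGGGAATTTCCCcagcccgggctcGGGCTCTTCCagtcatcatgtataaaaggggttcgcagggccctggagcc
Il6: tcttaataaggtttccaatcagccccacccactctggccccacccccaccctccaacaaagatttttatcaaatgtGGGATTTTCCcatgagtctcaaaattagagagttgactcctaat
The element was found in 4 of 8 CXC chemokine promoters, 2 of 11 cytokine promoters and 2 of 8 CC chemokine promoters, against 5.31% of all genes. Cxcl10 carries it as well and was not called (-0.45 ± 0.20, 0.071). Other settings called Cxcl10 with the same sign, among them the fit of only the 6 libraries compared and DESeq2. Ccl9, Nfkb2 and Tnip1 carry the element too and were higher (log2 changes 0.76, 0.59 and 0.23). Il1a, lower by -9.42, did not carry it in the bases searched.

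Over the whole families, 8 of 12 tested CC chemokines were lower, 3 higher and 1 not called (median -3.94), and 5 of 10 CXC chemokines were lower, 3 higher and 2 not called (median -0.74). Ccl24, an eosinophil attractant, stood at 0.685, 0.529 and 0.375 against 1566, 2089 and 1372 CPM (-11.66 ± 0.29, 3.8e-09). Ccl17 and Ccl22, ligands of Ccr4 made by dendritic cells and macrophages, were at 0.239 CPM or less against 33.9 to 101 CPM (-8.52 ± 0.53) and at 0.529 to 1.13 against 37.6 to 93.9 CPM (-6.47 ± 0.48). Both were lowest in HPV-positive replicate 2, the library that was also lowest in dendritic cell genes. Ccl3 and Ccl4, inflammatory chemokines, were lower by -5.30 ± 0.26 and -5.09 ± 0.30. The 3 CC genes that were higher were Ccl2, Ccl7 and Ccl9, each an attractant of monocytes or other leukocytes. Ccl2 stood at 183, 179 and 181 against 97.8, 110 and 96.1 CPM (0.79 ± 0.08, 1.8e-05), and the others changed by 0.94 ± 0.11 (Ccl7) and 0.76 ± 0.15 (Ccl9). Of the related monocyte attractants, Ccl12 was not called (-0.07 ± 0.26, 0.84) and Ccl8 was lower (-1.55 ± 0.56, 0.035). The call of Ccl8 was lost without HPV-positive replicate 1 (adjusted p = 0.062) or 2 (0.12), and without SCCVII replicate 1, 2 or 3 (0.09, 0.08 and 0.084). Of the CXC genes Cxcl14 was higher at 153, 160 and 161 against 19.7, 44.7 and 27.1 CPM (2.33 ± 0.29, 8.2e-05), with Cxcl11 (2.52 ± 0.30) and Cxcl12 (4.93 ± 0.86).

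Receptors of the same system moved in both directions, with 3 of 10 higher, 5 lower and 2 not called. Ccr2, the receptor for Ccl2 on inflammatory monocytes, was at 1002, 1103 and 1058 against 311, 263 and 297 CPM (1.82 ± 0.09, 1.6e-07), and Cx3cr1, found on patrolling monocytes and resident macrophages, at 1493, 1667 and 1495 against 191, 346 and 302 CPM (2.43 ± 0.22, 8.8e-06). Ccr7, which guides cells to lymph nodes, was at 1.75, 0.43 and 0.921 against 151, 41.6 and 106 CPM (-6.63 ± 0.57, 7.2e-06, and -7.24 without SCCVII replicate 1). Ccrl2, a non-signalling receptor, was lower by -4.96 ± 0.47. Other monocyte genes divided as well, 8 of 13 lower and 4 higher (median -1.99): Spn was higher (3.30 ± 0.23), and Ly6c2 (-2.87 ± 0.47), Plac8 (-2.60 ± 0.32) and Nr4a1 (-5.14 ± 0.26) were lower. Ly6c2 has a near-identical neighbour, Ly6c1, and its counts are uncertain.

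Receptors and adaptors of the Toll-like receptor pathway showed no common direction, with 8 of 22 higher, 9 lower and 5 not called and a median of 0.01, equal to that of all genes. Tlr12, a profilin sensor, was at 1.06, 1.22 and 1.81 against 132, 162 and 153 CPM (-6.81 ± 0.71, 2.6e-05), and Tlr7, a sensor of single-stranded RNA, at 141, 149 and 138 against 28.7, 37.2 and 31.6 CPM (2.09 ± 0.10, 1.9e-07). Tlr4, whose protein is inactive in C3H/HeJ mice because of a missense change, was not called by level (106, 90.2 and 86.2 against 100, 111 and 99 CPM, -0.17 ± 0.10, 0.14). The adaptor Myd88 was lower (-1.67 ± 0.17) and the adaptor Ticam2 higher (1.41 ± 0.07). The level of Tlr4 transcripts says nothing of that protein's activity.

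Subunits and inhibitors of NF-kappaB were called in both directions. The subunits Nfkb1, Rela and Relb were not called, at -0.02 ± 0.11, -0.07 ± 0.07 and -0.04 ± 0.16, and the subunit Nfkb2 was higher (0.59 ± 0.14, 0.0044). The remaining subunit of the list, Rel, was among its members that were lower. Several feedback inhibitors, which NF-kappaB induces, were lower: Tnfaip3 stood at 49.3, 42.9 and 43.2 against 722, 508 and 651 CPM (-3.84 ± 0.17, 1.1e-07), and Nfkbia at 141, 156 and 146 against 559, 349 and 441 CPM (-1.65 ± 0.18, 3.1e-05). Nfkbiz (-2.24 ± 0.18) and Nfkbid (-2.18 ± 0.14) were lower as well, whereas the inhibitor Tnip1 was higher (0.23 ± 0.06, 0.0095). In the list of 13, 8 were lower, 2 higher and 3 not called, and 7 of its 10 promoters held the kappaB-type element. In the inflammasome list, whose products cut and release interleukin-1, 10 of 13 were lower and 1 higher, among them Nlrp3 at 108, 91.2 and 92.1 against 577, 472 and 585 CPM (-2.53 ± 0.12, 1.9e-07), while Aim2 and Nlrp1b were not called.

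Arginine metabolism and alternative activation genes, often set against each other as opposite macrophage states, were lower together. Of 16 tested, 14 were lower, none higher and 2 not called, with a median of -2.98. Nos2, which makes nitric oxide from arginine, stood at 3.12, 3.21 and 3.92 against 402, 446 and 382 CPM (-6.95 ± 0.11, 3.5e-10). Arg1, which competes for the same substrate, was lower by less, at 712, 689 and 640 against 1492, 2332 and 1531 CPM (-1.44 ± 0.18, 8.2e-05). Interleukin-4 response genes were lower at several levels: the lectin Chil3 (-5.62 ± 0.39), the lectin Mgl2 at 25.1, 18.2 and 15.8 against 737, 815 and 821 CPM (-5.37 ± 0.42), the receptor Il4ra (-1.88 ± 0.17) and the factor Egr2 (-4.21 ± 0.10). Mgl2 and Clec10a are close paralogs, so their split of reads is uncertain. Mrc1, the mannose receptor often used to mark alternative activation, was at 963, 1030 and 800 against 771, 1144 and 901 CPM and was not called (-0.06 ± 0.21, 0.83).

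Ligands that restrain or stimulate T cells were mostly lower, 12 of 15 lower, 2 higher and 1 not called (median -1.07). Cd274, the gene of PD-L1, was at 21.7, 24.1 and 26.1 against 727, 657 and 655 CPM (-4.87 ± 0.15, 1.1e-08). Pdcd1lg2, the gene of PD-L2 and its neighbour on chromosome 19, was at 0.582, 0.0331 and 0.171 against 197, 192 and 153 CPM (-9.46 ± 0.54, 5e-07, and -10.78 without SCCVII replicate 1). Stimulating ligands were lower too, Cd80 at 10.7, 7.01 and 7.68 against 133, 104 and 114 CPM (-3.83 ± 0.16, 8.2e-08) and Cd86 at 49.2, 45.9 and 48.4 against 200, 200 and 197 CPM (-2.10 ± 0.13, 7.1e-07). The inhibitory ligand Cd276 was lower by -3.94 ± 0.09, and Havcr2, the gene of TIM-3, was not called (0.06 ± 0.10, 0.62). Vsig4, a checkpoint of resident macrophages, was among the 2 that were higher, at no more than 2.29 CPM (2.39 ± 0.93, 0.046), and its call was lost without SCCVII replicate 1 or 2 and without HPV-positive replicate 1 or 3. Without HPV-positive replicate 2 its change was 3.26.

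Prostaglandin and leukotriene genes parted at their first enzymes. Ptgs2, the inducible cyclooxygenase, was at 1.2, 0.926 and 1.16 against 510, 352 and 437 CPM (-8.67 ± 0.19, 1.7e-09), and Ptgs1, the constitutive form, at 52.1, 61.3 and 52.3 against 255, 426 and 309 CPM (-2.62 ± 0.27, 2.5e-05). The leukotriene enzyme Alox5 was higher at 196, 219 and 175 against 18.2, 34.7 and 29.2 CPM (2.80 ± 0.23, 4.8e-06), with its activating protein Alox5ap (1.66 ± 0.11). The enzymes next in line, Lta4h (-1.33 ± 0.09) and Ltc4s (-1.84 ± 0.22), were lower. In all 4 of 15 were higher, 8 lower and 3 not called.

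Scavenger and resident-type receptors were mostly higher in SCCVII or not called, 7 of 13 higher, 1 lower and 5 not called (median 1.27). Siglec1, a sialic acid receptor of tissue macrophages, stood at 849, 831 and 693 against 125, 125 and 110 CPM (2.68 ± 0.14, 3.6e-07). Stab1 stood at 1498, 1663 and 1267 against 499, 674 and 608 CPM (1.27 ± 0.18, 0.00018), and Cd36 at 113, 101 and 104 against 36.7, 34.8 and 28.6 CPM (1.63 ± 0.37, 0.0037). The groups did not overlap for any of these. Folr2, a folate receptor of resident macrophages, was at 169, 184 and 160 against 6.04, 23.7 and 10.2 CPM (3.64 ± 0.43, 6e-05), and the haemoglobin receptor Cd163 at 33.5, 30.5 and 23.9 against 2.72, 9.8 and 3.29 CPM (2.43 ± 0.45, 0.0011). Without HPV-positive replicate 2 these changes were 4.35 and 3.24. Msr1 was not called (0.09 ± 0.12, 0.51).

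Receptors for dying cells and their bridging proteins went both ways, 5 of 13 higher and 5 lower. The receptors Mertk, at 59.5, 51.6 and 48.5 against 203, 274 and 222 CPM (-2.18 ± 0.13, 6.9e-07), and Axl (-1.76 ± 0.11) were lower, while their ligands Pros1 (1.32 ± 0.15, 4.9e-05) and Gas6 (1.13 ± 0.37, 0.023) were higher. The call of Gas6 was lost without HPV-positive replicate 1 or 3 and without SCCVII replicate 1 or 2. Fc receptors, which bind antibody-coated targets, were lower in 4 of 6 and higher in none (median -1.28), led by Fcgr4 at 26.9, 36.5 and 39.8 against 517, 580 and 466 CPM (-3.96 ± 0.33, 5.2e-06). Their shared signalling chain Fcer1g was lower by -1.24 ± 0.12. Fcgr1 was not called (-0.28 ± 0.12, 0.066) and was called with the same sign in other settings, among them the fit of the 6 libraries and DESeq2. Of 16 complement genes 4 were higher and 6 lower: the anaphylatoxin receptor C3ar1 was at 833, 829 and 791 against 329, 393 and 339 CPM (1.17 ± 0.08, 1.9e-06), and Cfb of the alternative pathway was lower (-1.87 ± 0.28). C4b was higher (2.42 ± 0.31) but has a near-identical copy, C4a, so its counts are uncertain.

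Genes of lipid handling were mostly lower, 12 of 18 lower, 3 higher and 3 not called (median -0.67). Apoe, the lipid carrier abundant in foam cells, was at 207, 219 and 207 against 6613, 10284 and 8237 CPM (-5.35 ± 0.32, 7.4e-07), and the fatty acid carrier Fabp5 at 7.81, 7.7 and 8.57 against 549, 566 and 436 CPM (-6.05 ± 0.33, 4.2e-07). Pltp, the phospholipid transfer protein, was the counterpart, at 1605, 1777 and 1657 against 112, 106 and 117 CPM (3.87 ± 0.16, 6.3e-08). Trem2, a lipid receptor of tumour macrophages, was higher (1.53 ± 0.08, 4.1e-07) and Gpnmb, found in lipid-laden cells, lower (-4.04 ± 0.55, 0.00015). Per length, Apoe was at 355 ± 4.93 TPM in SCCVII and 11005 ± 2043 TPM in HPV-positive macrophages, while Lyz2, lysozyme, was at 16116 ± 1166 against 4788 ± 610 TPM (SD, n = 3). Of 22 cholesterol and fatty acid synthesis genes 6 were higher and 12 lower, with a median of -0.27.

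Lysosomal cathepsins were split, 3 of 17 higher, 7 lower and 7 not called. Ctsk was higher at 32.4, 46.4 and 48.4 against 1.43, 4.86 and 3.61 CPM (3.63 ± 0.37, 2.2e-05) and Ctsh lower (-2.42 ± 0.19). Of 10 tested genes typical of osteoclasts, Ctsk among them, 2 were higher, 5 lower and 3 not called (median -0.51). The fusion proteins Ocstamp, at 1.58, 1.98 and 2.46 against 388, 405 and 412 CPM (-7.69 ± 0.21, 7.3e-09), and Dcstamp (-5.17 ± 0.16) were lower, Nfatc1 was not called (0.10 ± 0.09, 0.39) and the receptor Tnfrsf11a was higher (1.33 ± 0.08). Matrix proteases, which cut collagen and elastin, were lower in 10 of 16 and higher in 3 (median -2.1). Mmp12 stood at 34.8, 15.3 and 22.9 against 3436, 4217 and 3422 CPM (-7.29 ± 0.32, 1.1e-07) and Mmp13 at 2.33, 1.79 and 1.91 against 2180, 3583 and 2324 CPM (-10.43 ± 0.60, 5.1e-07). Timp2, an inhibitor of these enzymes, was higher at 682, 688 and 607 against 121, 194 and 160 CPM (2.02 ± 0.17, 5.7e-06).

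Iron genes were mostly lower, 10 of 16 lower and 4 higher. The transporter protein transferrin, Trf, was at 89.6, 101 and 85.9 against 1506, 2209 and 1596 CPM (-4.31 ± 0.38, 8.7e-06), the exporter Slc40a1 at 0.651 to 0.819 against 7.33 to 15.1 CPM (-3.89 ± 0.47) and the haem oxygenase Hmox1 at 220, 222 and 220 against 572, 805 and 644 CPM (-1.65 ± 0.19). The uptake receptor Tfrc (1.38 ± 0.12) and the reductase Steap3, at 173, 167 and 148 against 17.6, 17 and 18.7 CPM (3.15 ± 0.09, 7.1e-09), were higher. The ferritin genes Fth1 (-1.62 ± 0.07) and Ftl1 (-0.94 ± 0.09) were lower, with pseudogenes that make their counts uncertain. Of 12 antioxidant genes driven by NRF2, 6 were lower and 2 higher. The cystine importer Slc7a11 was at 3.08, 2.48 and 2.66 against 214, 198 and 217 CPM (-6.30 ± 0.11, 4.5e-10), whereas Nqo1, at no more than 1.06 CPM, was higher (1.62 ± 0.52, 0.021), a call lost without SCCVII replicate 1 or 3 or HPV-positive replicate 2 or 3. Without HPV-positive replicate 1 its change was 2.35.

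Glycolysis and other genes induced by low oxygen were mostly lower in SCCVII macrophages. The factor HIF-1 binds the core letters ACGTG before many of them, and the promoters of 3 members that carry it are printed with those letters in capitals on either strand: Hilpda chr6:29272506-29272625 and Slc2a1 chr4:119108625-119108744 on the plus strand, and Pfkfb3 chr2:11553930-11554049 on the minus strand.
Hilpda: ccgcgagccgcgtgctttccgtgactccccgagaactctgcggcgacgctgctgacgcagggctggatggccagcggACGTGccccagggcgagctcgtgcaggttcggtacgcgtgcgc
Slc2a1: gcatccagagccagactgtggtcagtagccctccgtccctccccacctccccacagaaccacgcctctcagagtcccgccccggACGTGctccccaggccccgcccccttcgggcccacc
Pfkfb3: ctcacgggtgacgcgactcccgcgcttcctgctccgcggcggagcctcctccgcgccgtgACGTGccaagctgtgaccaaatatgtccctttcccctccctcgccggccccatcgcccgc
ACGTG was found in the promoters of 10 of 18 glycolysis genes and 10 of 13 other hypoxia genes with an entry, against 18.5% of all genes, and a match shows no binding. Of 19 glycolysis genes 16 were lower and 2 higher (median -0.83), and of 17 other hypoxia-induced genes 14 were lower and 2 higher (median -1.47).

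The glucose importer Slc2a1 stood at 266, 233 and 256 against 874, 952 and 959 CPM (-1.93 ± 0.08, 1e-07), and the first enzyme Hk2 at 122, 116 and 126 against 439, 532 and 508 CPM (-2.07 ± 0.09, 7.8e-08). Hilpda, which blocks lipid breakdown, was at 9.96, 10.4 and 12.6 against 332, 341 and 327 CPM (-4.97 ± 0.11, 2.2e-09). None of the groups overlapped. Vegfa, the main vessel growth factor, was at 28.7, 25.3 and 30 against 837, 808 and 817 CPM (-4.92 ± 0.09, 8.6e-10), and Ddit4, a growth inhibitor, was lower by -5.96 ± 0.30. Hif1a was itself lower (-1.51 ± 0.14, 1.1e-05), and Epas1, the gene of HIF-2 alpha, was higher at 29.1, 22.9 and 21.1 against 5.3, 6.24 and 6.39 CPM (1.98 ± 0.27, 0.00013). The importer Slc2a3 was among the 2 glycolysis genes that were higher (2.16 ± 0.22). Eno2, a glycolysis gene in neither list, was higher by more, at 56.9, 53.5 and 57.6 against 0.829, 0.781 and 0.941 CPM (5.99 ± 0.19, 1.6e-08). Eno1 and Gapdh have near-identical copies. Eno1 was lower (-2.14 ± 0.07) and its copy Eno1b was at 779, 800 and 784 CPM against 0, 0 and 1.33 CPM, and the sum of both was 1544 ± 26.5 CPM against 3245 ± 82.3 CPM (SD, n = 3), so the split between them is uncertain but the sum was lower in every SCCVII library. Gapdh, at 11.5 to 13.9 against 186 to 302 CPM, is given as uncertain.

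Genes of mitochondrial respiration did not follow glycolysis. Of 28 oxidative phosphorylation genes 15 were not called, 5 were higher and 8 lower, with a median of -0.02. Of 13 genes of the tricarboxylic acid cycle 5 were higher and 3 lower (median 0.13). Ndufa4 stood at 64, 66.7 and 69.6 against 25.1, 23.8 and 24.5 CPM (1.41 ± 0.08, 4.7e-07), and Acly, which links the cycle to fatty acid synthesis, was lower (-1.65 ± 0.09, 4.8e-07). Acod1, the itaconate enzyme of activated macrophages, was not called (22.5, 22.5 and 25.3 against 20, 18.4 and 21 CPM, 0.20 ± 0.15, 0.28).

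Cell-cycle genes were higher in SCCVII macrophages. Many genes of mitosis carry a cell cycle homology region near their start, with the core TTTGAA, read by the DREAM repressor and by the activator B-MYB. The promoters of 3 members are printed with TTTGAA on either strand in capitals, all on the minus strand: Cdc20 chr4:118437344-118437463, Cdk1 chr10:69352913-69353032 and Top2a chr11:99024190-99024309.
Cdc20: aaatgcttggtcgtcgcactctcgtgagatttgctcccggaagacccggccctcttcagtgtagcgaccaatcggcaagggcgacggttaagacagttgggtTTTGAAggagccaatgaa
Cdk1: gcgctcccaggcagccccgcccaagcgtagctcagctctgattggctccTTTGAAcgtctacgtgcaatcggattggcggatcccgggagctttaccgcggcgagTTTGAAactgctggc
Top2a: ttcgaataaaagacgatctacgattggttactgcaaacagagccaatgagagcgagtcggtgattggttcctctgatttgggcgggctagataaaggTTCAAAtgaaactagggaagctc
In these the nearest match ended 13, 10 and 18 bases before the start site. TTTGAA was found in 8 of 19 mitosis promoters (42.1%) and 3 of 25 DNA replication promoters, against 18.3% of all genes, and CCAAT in 17 of 19 mitosis promoters against 37.5%. The E2F-type letters TTTNGCGC were found in 5 of 25 replication promoters and 1 of 19 mitosis promoters, against 1.31%.

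All 24 mitosis genes were higher, 22 of them by more than 2-fold, with a median of 1.6 and a range from 0.71 for Bub1b to 2.20 for Cdc25c. Mki67, the proliferation marker, stood at 384, 400 and 339 against 126, 136 and 151 CPM (1.40 ± 0.13, 9.4e-06), and Ccnb1, the cyclin that drives entry to mitosis, at 62.8, 69.4 and 67 against 12.9, 15.1 and 18 CPM (2.07 ± 0.12, 5.6e-07). Cdc20, which triggers anaphase, was at 57.6, 75.7 and 63.5 against 13.1, 12.8 and 16 CPM (2.19 ± 0.12, 3.7e-07). No library of one group reached the other for these 3. Of 29 DNA replication genes 25 were higher, 1 lower and 3 not called, with a median of 0.76. Tk1 stood at 111, 130 and 127 against 32.3, 28.6 and 34 CPM (1.91 ± 0.09, 1.1e-07) and Mcm6, of the replicative helicase, at 295, 302 and 319 against 95.9, 99.6 and 111 CPM (1.54 ± 0.08, 1.9e-07). Mcm4 was the member that was lower (-0.61 ± 0.08, 7.5e-05), and Pcna was not called (0.06 ± 0.06, 0.41). In bulk libraries, more dividing cells and more of these transcripts per cell cannot be told apart, and the same holds for every gene given here.

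Growth factors were mostly lower, 12 of 19 lower, 5 higher and 2 not called (median -1.69). Pgf, a relative of Vegfa, stood at 0.925, 0.76 and 0.682 against 210, 147 and 205 CPM (-7.93 ± 0.26, 1.7e-08), and Thbs1, an inhibitor of vessel growth, at 5.27, 3.21 and 4.03 against 891, 893 and 913 CPM (-7.80 ± 0.20, 3.9e-09). Spp1, osteopontin, was at 740, 475 and 655 against 3513, 7920 and 4530 CPM (-3.14 ± 0.34, 3.6e-05). The platelet-derived factors Pdgfb, at 180, 191 and 187 against 57.5, 67.3 and 64.5 CPM (1.52 ± 0.07, 1.1e-07), and Pdgfa (1.86 ± 0.12) were higher. Csf1, the ligand of Csf1r, was at 5.2, 5.19 and 5.49 against 207, 438 and 245 CPM (-5.85 ± 0.45, 3.2e-06). The chains of the receptor for granulocyte-macrophage colony-stimulating factor were lower, Csf2ra by -0.93 ± 0.07 and Csf2rb, at 268, 238 and 233 against 1887, 1652 and 1774 CPM, by -2.89 ± 0.13. Csf2rb has a near-identical copy, Csf2rb2, which was lower too (-3.32 ± 0.16).

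Transcription factors of the myeloid lineage were lower in 18 of 27, higher in 5 and not called in 4 (median -1.05). The lineage factor Spi1 was not called (399, 450 and 436 against 482, 458 and 489 CPM, -0.20 ± 0.09, 0.095). Cebpb, a factor of inflammatory macrophages, was lower at 48.9, 54.1 and 53.9 against 360, 426 and 433 CPM (-3.0 ± 0.14, 1.4e-07). Maf, a factor of mature macrophages, was higher at 294, 308 and 262 against 83.7, 127 and 87.1 CPM (1.49 ± 0.18, 6e-05). Early response factors were lower, Atf3 by -3.45 ± 0.26 and Egr1 by -2.71 ± 0.20.

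Adhesion genes divided, 4 of 12 higher and 7 lower. Itgax, the CD11c integrin of dendritic cells and some macrophages, was at 49.9, 35.6 and 50.8 against 2533, 2480 and 2546 CPM (-5.84 ± 0.37, 9.2e-07), and Itgal, its relative, was lower by -3.57 ± 0.22. Itga6 (1.16 ± 0.14), Itgb1 (0.98 ± 0.06) and Cd44 (0.80 ± 0.09) were higher. Of 7 S100 genes, small calcium-binding proteins, 5 were higher, with S100a4 at 916, 1103 and 1136 against 148, 85.7 and 121 CPM (3.11 ± 0.30, 1.4e-05) and S100a6 by 1.74 ± 0.28. S100a11 was lower at 149, 154 and 150 against 589, 456 and 525 CPM (-1.83 ± 0.12, 1.3e-06).

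The largest rises and falls, taken by rule among genes that reached 10 CPM in all libraries of whichever group was higher, lay mostly outside these lists. In SCCVII macrophages the proteoglycan gene Cspg4 (chromosome 9, 56865033 to 56899870) was at 422, 506 and 457 against 0.23, 0.434 and 0.863 CPM (9.73 ± 0.47, 1.8e-07, and 10.37 without HPV-positive replicate 3). Its level was above the 179 CPM of the cultured SCCVII line. Hal, histidine ammonia-lyase (chromosome 10, 93488768 to 93519304), was at 127, 97.4 and 94.6 against 0.276, 0.304 and 0.588 CPM (8.01 ± 0.36, 1.1e-07). Ambp (chromosome 4, 63143275 to 63154799) was at 40, 30 and 36 against 0.0461, 0.0867 and 0.157 CPM, with none in either line. The myelin protein gene Pmp22 was at 388, 370 and 355 against 3.04, 8.24 and 4.55 CPM (6.09 ± 0.32, 3e-07), and the transporter Slco2b1 at 228, 229 and 198 against 3.46, 9.11 and 5.02 CPM (5.17 ± 0.29). Nrcam, a neuronal adhesion gene, had no counts in HPV-positive macrophages and was at least 324-fold higher. H2-Q2 (8.59 ± 0.25, and 9.27 without HPV-positive replicate 1) and Zfp979 (6.32 ± 0.31) belong to gene families with near-identical members and are uncertain.

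Among the largest falls, Plet1, a surface protein of epithelial and dendritic cells (chromosome 9, 50494525 to 50505482), was at 0.103, 0.0661 and 0.0682 against 604, 334 and 459 CPM (-12.49 ± 0.36, 8.2e-09). Adamdec1, a metalloprotease of gut macrophages (chromosome 14, 68563380 to 68582095), had 2 counts over the SCCVII libraries and stood at 384, 617 and 462 CPM in HPV-positive macrophages. The protease inhibitor Spint1 (chromosome 2, 119237362 to 119249527) was at 0.24, 0.397 and 0.375 against 750, 726 and 733 CPM (-11.11 ± 0.41, 3.7e-08), and was at 7.51 CPM in the HPV-positive line. Car4, a membrane carbonic anhydrase, and Tnfaip8l3 had no counts in SCCVII and were at least 513-fold and 324-fold lower. Apol7c, of a family of close copies and so uncertain, also had none there and was at 18.6, 31.7 and 25.9 CPM in HPV-positive macrophages. Pla1a (-9.76 ± 0.37, 4.5e-08) and Klrb1b (-8.66 ± 0.52, 6.6e-07), the latter in a family with close copies, completed the genes of this kind that are given here.

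Other cell types in the sort were followed by their markers. Dendritic cell markers summed to 24.9, 19.6 and 26 CPM in SCCVII and 478, 191 and 391 CPM in HPV-positive libraries, and 8 of 10 tested were lower with none higher. T cell markers summed to 18.2, 6.22 and 12 against 83.5, 53.5 and 98 CPM (9 of 10 lower), and natural killer cell markers to 7.16, 6.74 and 11.5 against 167, 81.2 and 164 CPM (7 of 8 lower). These sums moved with the class II, Ccl17, Ccl22, Ccr7, Ifng and interferon-gamma lists above, and their part in those results was not tested. In HPV-positive replicate 2, where the dendritic sum was 191 CPM, H2-Ab1 was at 6689 CPM against 8850 and 8257 in its fellow libraries. The cultured HPV-positive line itself had T cell sums of 22.6 to 72.9 CPM and natural killer sums of 38.1 to 63.4 CPM. In the SCCVII line they were 1.1 to 1.61 and 0.214 to 0.348 CPM. Which cells gave the T and natural killer sums of the macrophage libraries was not tested.

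Epithelial markers summed to 131, 109 and 107 against 531, 436 and 563 CPM. The sum was carried by Cdh1, at 367 to 497 CPM in HPV-positive macrophages, above the 23.9 CPM of the HPV-positive line, while Krt19 was at 5.26 to 8.2 CPM against 254 CPM in that line and Perp at 1.01 to 1.33 against 163 CPM. Endothelial markers summed to 23.9, 20.4 and 18.8 against 182, 167 and 151 CPM. Pecam1 made up most of the HPV-positive sums, and of 4 tested members Pecam1 and Vwf were lower, Kdr was higher (0.80 ± 0.27, 0.025) and 1 was not called. The call of Kdr was lost without SCCVII replicate 1 and without HPV-positive replicate 2 or 3. Eosinophil markers summed to 1.51, 1.62 and 1.91 against 87.5, 117 and 94 CPM, with Siglecf and Ear2 lower and Epx and Il5ra at 0 in all 6 libraries. The third tested member, Ccr3, was higher at 0.719, 0.727 and 0.955 against 0.138, 0.217 and 0.392 CPM (1.6 ± 0.39, 0.0055). Neutrophil markers summed to 36.4 to 37.2 against 80.4 to 96.5 CPM with Ly6g, Retnlg and Camp at 0 in all 6. B cell markers were the set with a higher sum in SCCVII, 98.3, 145 and 137 against 27.3, 21.3 and 30.3 CPM, of which Ighm made up most in SCCVII. Of 5 tested B cell genes 2 were higher and 2 not called, and Cd79b was lower at 3.29, 2.48 and 2.76 against 10.3, 6.94 and 8.63 CPM (-1.64 ± 0.21, 8.4e-05). Fibroblast markers summed to 14.4 to 16.9 against 15.8 to 35 CPM, with overlap, and erythroid and platelet markers to 41.7 to 50.1 against 183 to 294 CPM, mostly Pf4. Mast cell and basophil markers stayed at or below 1.47 CPM.

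**Figure D3:**
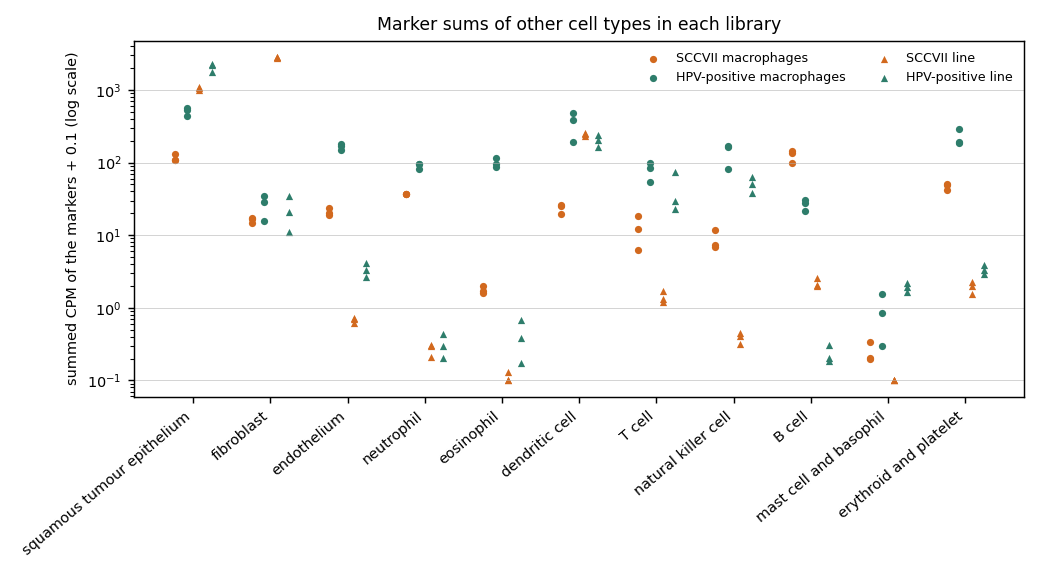
Summed CPM (plus 0.1, log axis) of the markers of 11 other cell types in each library of SCCVII (orange) and HPV-positive MEER (green), with macrophages as circles and cultured lines as triangles. Dendritic, natural killer and eosinophil sums are higher in all HPV-positive macrophage libraries, the B cell sum is higher in all SCCVII ones, and the fibroblast sums of the macrophages lie far below the 2717 to 2852 CPM of the SCCVII line.

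The plot of marker sums sets these beside the tumour lines. The dendritic cell sum of the lines, 162 to 257 CPM, came mainly from Fscn1, which tumour cells express too, and the sum is therefore no measure of dendritic cells there. Transcripts typical of the SCCVII line, such as Col1a1 at 647 CPM, were at 4.44 to 4.83 CPM in SCCVII macrophages.

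The 2 groups differed along the X chromosome. Xist, the RNA that coats the inactive X of female cells, was at 371, 359 and 317 CPM in SCCVII and had no counts in HPV-positive macrophages, at least 8139-fold higher. The labels give no sex. Of 486 X-linked genes tested 213 were higher (43.8%) and 78 lower (16%), with a median of 0.24, whereas the medians of the autosomes ran from -0.06 to 0.11, with 28.2% to 36.6% higher. Eif2s3x, an X-linked gene that escapes inactivation, was at 306, 303 and 316 against 159, 168 and 169 CPM (0.86 ± 0.06, 2.6e-06), with smaller changes for Ddx3x (0.43 ± 0.07), Kdm5c (0.22 ± 0.06) and Kdm6a (0.26 ± 0.07). These X-linked genes were chosen after their values were seen. A difference in sex, read here from X-linked genes alone, would go along with the model in these libraries. Such a difference could not be told apart from strain, line and papillomavirus status.

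The cultured lines give the difference between the tumour cells themselves, in libraries that the macrophage comparison does not use. The lines were aliquots of cultured cells, so their spread may be technical. Of 14396 genes tested between the SCCVII and HPV-positive lines, 9217 were called (64%), 4312 higher (30%) and 4905 lower (34.1%) in SCCVII, and 3706 passed a 2-fold test (25.7%). Among 12729 genes tested in both comparisons, 1371 were higher in both, 31.9% of the macrophage calls and 35.9% of the line calls, where 30% of all these genes were higher between lines and 33.7% between macrophages. More genes, 1445, were higher in SCCVII macrophages and lower in the SCCVII line, 33.7% of the macrophage calls where 33.1% of all were lower between lines. Genes lower in both numbered 1377, 37.2% of the macrophage and 32.7% of the line calls, where 33.1% and 29.1% of all were lower, and 1059 (28.6% against 30%) were lower in macrophages and higher between lines. By the 2-fold test both directions exceeded the share of all genes. The same direction was held by 263 higher genes (29.3% of the macrophage calls against 10.7%, 19.4% of the line calls against 7.05%) and 351 lower genes (33.2% against 10.8%, 25.5% against 8.3%). The opposite direction was held by 132 genes higher in macrophages (14.7% against 10.8%) and 160 genes lower in macrophages (15.2% against 10.7%). Strain differs in both comparisons alike, and what it contributes to the shared genes was not tested.

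**Figure D4:**
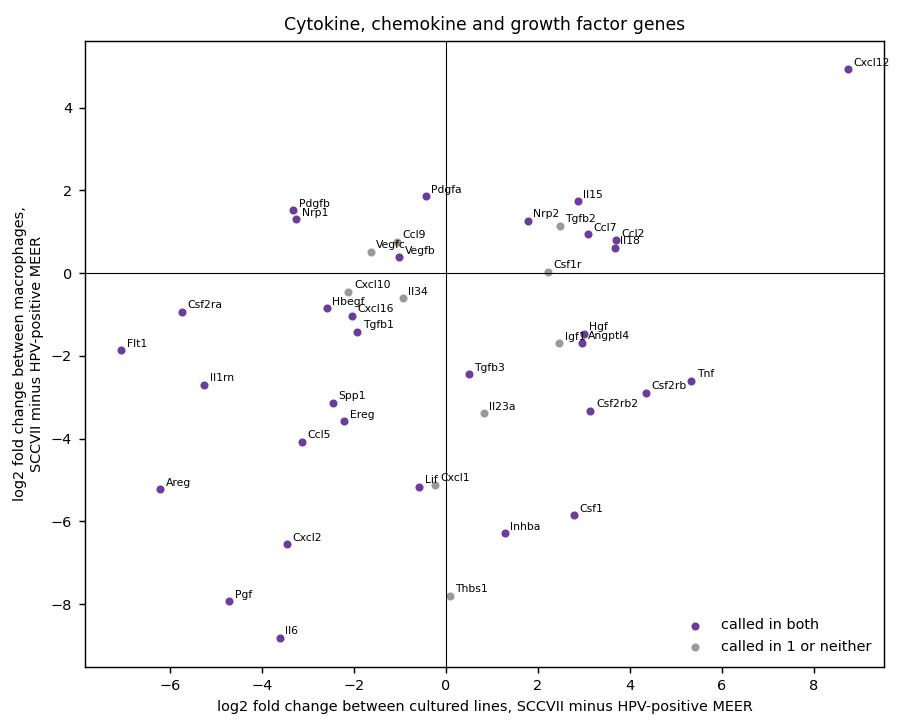
Log2 fold change of SCCVII over HPV-positive MEER between macrophages (y axis) and between cultured lines (x axis) for 42 cytokine, chemokine, growth factor and colony-stimulating factor genes tested in both. Purple points were called in both comparisons: 20 of these 32 had the same direction, such as Areg and Cxcl12, and 12 the opposite, such as Csf1 and Tnf.

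The plot of secreted factors and their receptors sets macrophage against tumour cell. Cxcl12 was higher in SCCVII in both, at 6.48 to 7.06 against 0.173 to 0.235 CPM in macrophages and at a mean of 170 against 0.368 CPM in the lines (line log2 change 8.74 ± 0.28, adjusted p = 4.2e-09). Areg, a ligand of the epidermal growth factor receptor, was lower in both, at 0.102 to 0.264 against 5.94 to 9.34 CPM and 3.34 against 232 CPM (-6.21 ± 0.29, 4.8e-08). Csf1 was lower in SCCVII macrophages but higher in the SCCVII line, at 819, 789 and 817 CPM against 72.3, 135 and 126 CPM (2.78 ± 0.24, 3.5e-06). Thbs1 differed between macrophages but was not called between lines, at 216 against 193 CPM (0.08 ± 0.20, 0.74). Il1b, Ccl24 and Pdcd1lg2 were near 0 in both lines, at no more than 0.185 CPM.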

How the data were processed

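RNA-seq counts were analysed from 23 libraries, and this comparison uses the 3 SCCVII and 3 HPV-positive macrophage libraries. The deposited tables hold expected counts and TPM per gene, per the file headers. The submitters' processing notes name FastQC, STAR 2.5.3a, RSEM 1.3.0 and MultiQC, with builds mm10 and GRCm38, and the strand setting and annotation were not given in these sources. The authors' expected counts (13.1% of values not whole) were rounded. The deposited TPM values were used only to set genes beside each other. Of 36793 gene identifiers 35243 (95.8%) matched a symbol in GENCODE release M21, GRCm38. Promoters came from RefSeq GRCm38.p6. All libraries were counted against 1 reference, which derives from C57BL/6J.

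The 9 macrophage libraries were fitted together in edgeR 4.0.16 (R 4.3.3, limma 3.58.1) with TMM scaling, filterByExpr (minimum count 10, minimum total 15), glmQLFit and glmQLFTest, and glmTreat for changes over 2-fold. The 9 line libraries were fitted likewise. Depth of 26848759 to 32674678 counts limited what could be seen at low levels, and a group at 0 was set at a floor of 3 counts in all, which covers counting error only. Libraries are pools or aliquots that the labels separate, so p-values measure the spread between them. On simulated data for 13859 macrophage genes, 17, 46, 50 and 50 of 50 genes changed by 1.5, 2, 4 and 8-fold were called, with 4 false calls. On 14090 genes of the line comparison 13, 42, 50 and 50 of 50 were called, with 6 false calls. In both simulations only a small share of genes changed, none at low counts and as many up as down, and all genes had the same spread. In the data most genes were called, so these numbers need not carry over to it.

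The genes named were the 20 largest rises and falls among called genes whose libraries do not overlap and that reached 10 CPM in all libraries of whichever group was higher, without predicted genes, pseudogenes, ribosomal protein genes and receptor segments. To these were added up to 2 rises and 2 falls per list and all members of lists described in full, and further list members were given as examples. The members and the 52 lists were chosen with earlier results of these data known. Alternatives were RLE and upper quartile scaling, no filter, other sets of libraries, a replicate block, DESeq2 1.42.0 and leaving out each replicate. Some listed genes were not matched and are not analysed here, and some named genes are not reported here.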

Additional observations from a re-analysis of the deposited data

Results flagged for a closer look

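For 17 of 109 genes, SCCVII was called above HPV-positive MEER in one comparison and below it in the other, with no overlap of libraries in either. The 109 are the 40 genes of largest change, the cytokine, chemokine, growth factor and colony-stimulating factor lists, and Vegfa, which was added after its values were seen. Of all 324 named genes 78 showed this, among them 12 of the 19 glycolysis genes. Ldha, for example, changed by -0.60 in macrophages and 0.92 in lines. Of all 12729 genes tested in both comparisons, 1445 were called higher between macrophages and lower between lines, and 1059 the reverse. Those counts set no condition on overlap of libraries. Opposite calls were thus not particular to the named genes. The comparisons are between macrophages and between cultured lines, and the difference between them was not tested.

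Among ligands, Csf1 changed by -5.85 in macrophages and 2.78 in lines on the log2 scale, Vegfa by -4.92 and 0.71, Tnf by -2.60 and 5.33, Inhba by -6.29 and 1.28, and Tgfb3 by -2.44 and 0.49. Hgf changed by -1.47 and 3.00, and Angptl4 by -1.69 and 2.96. Vegfa was at 471, 468 and 477 CPM in the SCCVII line and 306, 262 and 248 CPM in the HPV-positive line. Pdgfa (1.86 and -0.44), Pdgfb (1.52 and -3.32) and Vegfb (0.38 and -1.02) had the other order. Tnf was at no more than 0.684 CPM in any line library and Pdgfb at no more than 1.26 CPM.

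Among receptors, Csf2rb changed by -2.89 and 4.35 and Csf2rb2 by -3.32 and 3.14, both below 1 CPM in every line library. Nrp1, a coreceptor of vessel growth factors, changed by 1.3 and -3.25, at 204 to 224 against 75.5 to 94.3 CPM in macrophages and 9.46 to 10.6 against 66.9 to 118 CPM in lines. Of the largest changes, Rab44 changed by -9.98 and 8.80, Atp6v0e2 by 7.02 and -3.45, Cacna1a by 5.31 and -3.04, and Colec12 by 6.91 and -3.64. These were low in the lines. No SCCVII or HPV-positive line library exceeded 6.5 CPM for Rab44, 6.39 for Atp6v0e2, 3.66 for Cacna1a or 5.64 for Colec12.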

How the results depend on the processing

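The counts of genes called between macrophages, between lines and past 2-fold stayed within 1.5 times under each alternative. Macrophage totals were 8898 with RLE scaling, 9092 with upper quartile scaling, 8961 without the filter, 9503 with only the 6 libraries compared, 6607 with all 23 libraries and 9079 with DESeq2. Leaving out each replicate gave 4090 to 4980 higher and 3916 to 4877 lower genes, and past 2-fold 921 to 1164 and 1362 to 1730. For lines it gave 3815 to 4638 higher and 4343 to 5139 lower. With the replicate number as a block, 4882 were higher and 4781 lower, and past 2-fold 1144 and 1707. For lines the block gave 4194 and 4678. Same-numbered SCCVII and HPV-positive macrophage libraries correlated in their deviations at 0.045, 0.116 and 0.077, and differently numbered ones at -0.083 to 0.008. Whether the numbers pair the libraries was not tested. Of the counts of list members called higher or lower, 50 moved by over 1.5 times with all 23 libraries and 54 did not, 39 did and 897 did not on leaving out 1 library, and at most 5 of 104 did under each other alternative. Of 324 named genes none reversed under 16 alternatives. With all 23 libraries 66 lost the call and none gained it, and 17 lost and 8 gained it under at least 1 other alternative. Depth limits genes near 0 in 1 group, whose fitted changes depend on the prior count.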
